A study of Rattus norvegicus with 27 samples.

Results

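Fos, Jun, Atf3, Egr1 and Myc are 5 immediate early genes, and they were followed in primary rat lung fibroblasts kept on soft silicone or on plastic. They were taken by Ensembl rat gene ID from a table of raw read counts: ENSRNOG00000008015 for Fos, ENSRNOG00000026293 for Jun, ENSRNOG00000003745 for Atf3, ENSRNOG00000019422 for Egr1 and ENSRNOG00000004500 for Myc. They are 5 of the 32753 genes listed there, and all 5 passed the filter on low counts that kept 14258 genes. The cells came from lungs of Sprague-Dawley rats and were picked with magnetic beads against CD90 (the Thy-1 surface antigen). The column names label all libraries used as wild type (WT), MonoCulture and Non. The soft surface was polydimethylsiloxane (PDMS) of 3 to 5 kPa, and both surfaces had a coat of rat tail collagen I applied at 38 µg/ml, with MucilAir medium in all groups. PDMS was sampled at days 2, 4, 7 and 14 and plastic at days 4, 7 and 14, with 4 RNA sequencing libraries a group and 3 for Plastic day 7. Nothing used here ties a library to an animal or a dish, so the tests speak of the spread among libraries, which may be partly technical. Marker genes of fibroblasts and of other cell types were not analysed here, because the files give IDs without names, and so the labelled cell type was not checked. In bulk RNA of this kind, fewer cells of a type and less RNA per cell cannot be told apart.

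Immediate early genes are switched on within minutes by growth factors, serum, stress or mechanical load, without new protein synthesis, and most of their transcripts decay fast. Fos and Jun proteins pair through leucine zippers into AP-1, a transcription factor that binds the site TGANTCA and drives matrix protease and proliferation genes in fibroblasts. Atf3 is a zipper protein of the ATF/CREB family that pairs with Jun proteins and is known as a stress-induced regulator. Egr1 is a zinc finger factor induced by serum and by stretch, and in fibroblasts it is known to act downstream of TGF-beta on collagen genes. Myc pairs with Max on the E-box CACGTG and promotes growth and ribosome production.

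The 5 genes did not move as 1 block. Atf3, Jun and Myc were lower at day 14 than at the first day sampled, which was day 2 on PDMS and day 4 on plastic. On PDMS, Jun and Myc did not pass a test after day 4, and on plastic their calls ended in several settings. Atf3 fell the most, to a level 8.32-fold lower at PDMS day 14 than at PDMS day 2. Egr1 was highest on average at day 14 on both surfaces, and Fos showed no difference between groups that passed a test with all libraries in. No gene of the 5 passed the edgeR test between PDMS and plastic at any day. Within groups, Fos and Egr1 tended to be high or low in the same libraries.

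Libraries held 17285101 to 25334417 counts, and the 5 genes together took 0.0178% to 0.0674% of them. Plastic day 4 replicates 1 and 2, and Plastic day 14 replicates 2 and 3, were closely alike (r of 0.994 and 0.993 over all genes, in log2 CPM). They differed by more than sampling noise, with a chi-square per degree of freedom of 7.34 and 7.71, and were kept as separate samples. Plastic day 4 replicate 3 stood apart, with a median r of 0.885 to its own group. Across all genes, 5 libraries deviated from their group means in a common direction: Plastic day 4 replicates 1 and 2, PDMS day 2 replicate 2, PDMS day 4 replicate 2 and Plastic day 7 replicate 4. The last 4 of these correlated with the first at 0.846, 0.44, 0.592 and 0.519 in their deviations. Fits without these 5 kept 22 libraries. Plastic day 4 then held only replicate 3, which stood apart, and replicate 4, and Plastic day 7 only replicates 1 and 3. Values from those fits therefore rest on fewer libraries a group. Values below are CPM (read counts scaled to a common library size by TMM, the usual counts-per-M unit), and fold changes come from the edgeR quasi-likelihood test with Benjamini-Hochberg adjustment over all 14258 genes at a threshold of 0.05.

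**Figure D1:**
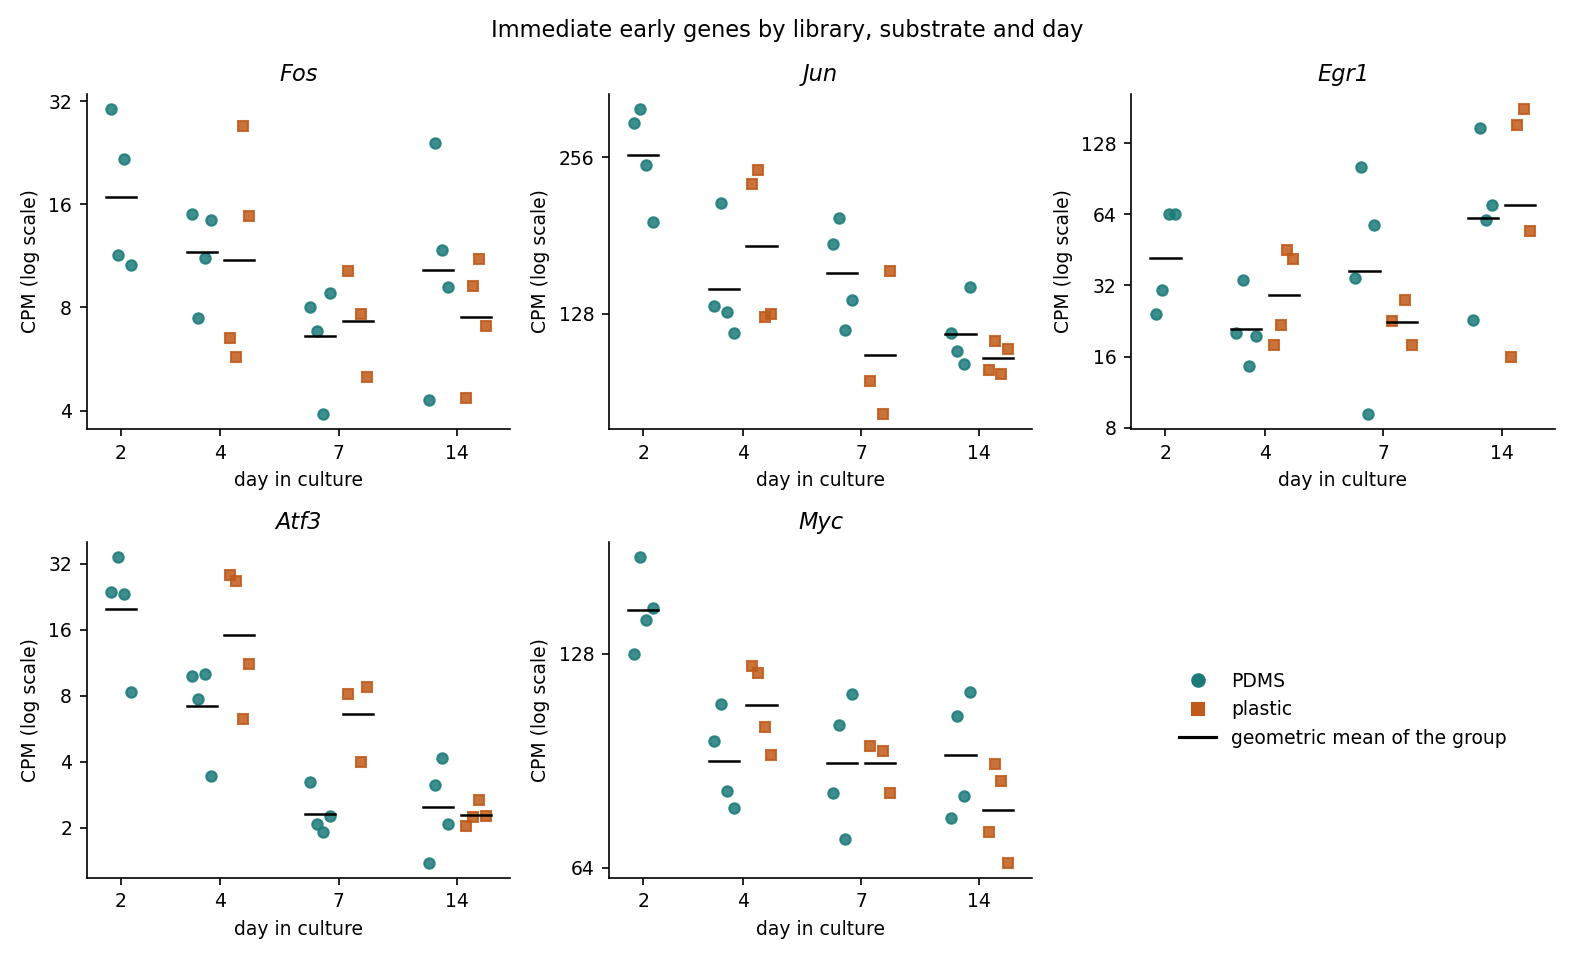
Each point is 1 library, in CPM on a log2 axis, against day in culture, with PDMS as circles and plastic as squares, and the black bar is the geometric mean of the group (n = 4, and 3 for Plastic day 7). Atf3 is low from day 7 on PDMS and at day 14 on plastic, Jun and Myc are highest at PDMS day 2, and Egr1 spreads from 15.9 to 179 CPM at Plastic day 14.

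Fos, the partner that gives AP-1 its stronger DNA binding, stood at 30.4, 11.4, 21.7 and 10.6 CPM at PDMS day 2, at 15, 7.47, 11.1 and 14.4 CPM at PDMS day 4, at 8.02, 6.81, 3.91 and 8.83 CPM at PDMS day 7, and at 4.29, 24.2, 11.8 and 9.16 CPM at PDMS day 14. On plastic it stood at 6.50, 5.74, 27 and 14.7 CPM at day 4, at 10.2, 7.68 and 5.00 CPM at day 7, and at 4.35, 9.24, 11.1 and 7.04 CPM at day 14. The groups overlapped in each comparison made, and the spread within a group reached 5.64-fold at PDMS day 14 and 4.70-fold at Plastic day 4. By mean log2 CPM the order was PDMS day 2, then PDMS day 4, then Plastic day 4, then PDMS day 14, then Plastic day 14, then Plastic day 7, then PDMS day 7, and no neighbours in it differed by more than their pooled SD. A test for any difference among the 7 groups did not pass for Fos (edgeR F of 2.13, adjusted p = 0.130), where 57.2% of genes tested did. Without the 5 libraries that deviated together it passed (F of 3.29, adjusted p = 0.0465). Set against PDMS day 2, Fos had log2 fold changes of -0.59 ± 0.50 at PDMS day 14 (edgeR adjusted p = 0.334) and -0.63 ± 0.50 at PDMS day 4 (edgeR adjusted p = 0.433), each with its SE.

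Jun, the AP-1 subunit that can also pair with itself, stood at 298, 317, 248 and 193 CPM at PDMS day 2, at 132, 209, 129 and 117 CPM at PDMS day 4, at 174, 196, 119 and 136 CPM at PDMS day 7, and at 117, 109, 102 and 144 CPM at PDMS day 14. On plastic it stood at 227, 242, 126 and 128 CPM at day 4, at 95.0, 82.1 and 155 CPM at day 7, and at 99.8, 113, 98.0 and 110 CPM at day 14. All 4 PDMS day 14 libraries lay below all 4 of PDMS day 2, and all 4 Plastic day 14 libraries below all 4 of Plastic day 4. Jun fell to 118 ± 18.3 CPM at PDMS day 14, against 264 ± 55.9 CPM at PDMS day 2 (SD, n = 4 each), a log2 fold change of -1.16 ± 0.24 SE (adjusted p = 0.000583, edgeR). Most of that step lay between days 2 and 4, where the log2 fold change was -0.85 ± 0.24 (edgeR adjusted p = 0.0345). At PDMS day 14 against PDMS day 4 the log2 fold change was -0.31 ± 0.24 and did not pass (edgeR adjusted p = 0.330). On plastic Jun fell to 105 ± 7.45 CPM at day 14, against 181 ± 62.5 CPM at day 4 (SD, n = 4 each), a log2 fold change of -0.78 ± 0.24 (edgeR adjusted p = 0.0182). The plastic call rested on the closely alike pair of day 4: it ended without replicate 1 (log2 fold change -0.62, edgeR adjusted p = 0.0913) and without replicate 2 (-0.61, adjusted p = 0.0848), and the value without the 5 libraries that deviated together was -0.26 (adjusted p = 0.394). By mean log2 CPM the order was PDMS day 2, then Plastic day 4, then PDMS day 7, then PDMS day 4, then PDMS day 14, then Plastic day 7, then Plastic day 14. Only PDMS day 2 and Plastic day 4 differed, among neighbours, by more than their pooled SD (0.59 against 0.43 on the log2 scale), and their libraries overlapped.

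Atf3, the stress-induced partner of Jun, stood at 23.7, 34.3, 23.3 and 8.31 CPM at PDMS day 2, at 9.88, 7.73, 10.1 and 3.47 CPM at PDMS day 4, at 3.24, 2.08, 1.91 and 2.27 CPM at PDMS day 7, and at 1.39, 3.13, 4.19 and 2.08 CPM at PDMS day 14. On plastic it stood at 28.6, 26.8, 6.29 and 11.2 CPM at day 4, at 8.17, 4.01 and 8.79 CPM at day 7, and at 2.05, 2.25, 2.70 and 2.26 CPM at day 14. The lowest PDMS day 2 library, replicate 4, still lay above each PDMS day 14 library, and the lowest Plastic day 4 library, replicate 3, lay above each Plastic day 14 library. Atf3 fell to 2.70 ± 1.23 CPM at PDMS day 14, against 22.4 ± 10.7 CPM at PDMS day 2 (SD, n = 4 each), a log2 fold change of -3.06 ± 0.49 SE (adjusted p = 4.85e-05, edgeR), and 10.0% of genes tested had a larger absolute value. On plastic it fell to 2.31 ± 0.27 CPM at day 14, against 18.2 ± 11.2 CPM at day 4 (SD, n = 4 each), a log2 fold change of -2.98 ± 0.49 (edgeR adjusted p = 0.000331) that 5.30% of genes exceeded in size. These calls held in each setting tried, though the plastic value was -1.90 without the 5 libraries that deviated together (adjusted p = 0.0196). The depth behind the low values was 34 to 83 reads per library at PDMS day 14 and 37 to 51 at Plastic day 14.

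Atf3 is shown by steps on PDMS. Between days 2 and 4 the log2 fold change was -1.52 ± 0.46 (SE, edgeR adjusted p = 0.0395). This call ended with limma-voom (-1.45, adjusted p = 0.0586) and without the 5 libraries that deviated together (-1.27, edgeR adjusted p = 0.0870). Between days 4 and 7 it was -1.71 ± 0.47, with all day 7 libraries below all day 4 libraries, as for 6.74% of genes, and did not pass (edgeR adjusted p = 0.111). DESeq2 called it (adjusted p = 0.0165), among 383 genes in all, where edgeR called 21. Between days 7 and 14 the log2 fold change of Atf3 was 0.18 ± 0.46 (edgeR adjusted p = 0.834). On plastic the log2 fold change was -1.38 ± 0.50 at day 7 against day 4 (edgeR adjusted p = 0.180) and -1.59 ± 0.49 at day 14 against day 7 (edgeR adjusted p = 0.155), and neither passed. The first was -0.50 without the 5 libraries that deviated together. The order by mean log2 CPM was PDMS day 2, then Plastic day 4, then PDMS day 4, then Plastic day 7, then PDMS day 14, then PDMS day 7, then Plastic day 14. Among neighbours, Plastic day 4 and PDMS day 4 differed by more than their pooled SD (1.07 against 0.89 on the log2 scale), as did Plastic day 7 and PDMS day 14 (1.38 against 0.65), and the libraries of both pairs overlapped.

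Egr1 was looked up in the RefSeq promoter table of build GRCr8, which matched 1 of the 5 genes. Its promoter, the 1 that the table held, is shown as the sequence of a member called higher at PDMS day 14 against PDMS day 4. The window runs 250 bases before and 50 after the annotated start on the plus strand, chr18:26736828-26737127, 5′ to 3′, with CArG boxes and CRE cores in capitals.
Egr1: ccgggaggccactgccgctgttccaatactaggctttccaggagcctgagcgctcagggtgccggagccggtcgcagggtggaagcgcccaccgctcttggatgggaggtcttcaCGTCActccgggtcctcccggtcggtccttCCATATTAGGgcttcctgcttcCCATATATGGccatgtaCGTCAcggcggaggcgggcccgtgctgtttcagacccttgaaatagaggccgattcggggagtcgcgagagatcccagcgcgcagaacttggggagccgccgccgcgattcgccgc
The CArG box, the core bound by serum response factor, was searched on both strands and had 2 matches, CCATATTAGG at -105 to -96 and CCATATATGG at -83 to -74 from the start. Of 33469 promoter windows of that length, 1.64% held at least 1 CArG box and 0.0209% held 2 or more. The CRE core TGACG, bound by CREB and ATF proteins, also had 2 matches, on the minus strand at -135 to -131 and -66 to -62. At least 1 was held by 21.2% of windows, and 2 or more by 4.96%. No match overlapped another. The AP-1 site TGANTCA, the EGR site GCGNGGGCG and the E-box CACGTG had 0 matches in this window, and 7.33%, 4.98% and 6.42% of windows held them. A match of letters is a description and not a shown binding site.

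Egr1 stood at 24.1, 30.7, 64.4 and 64.0 CPM at PDMS day 2, at 20.1, 33.7, 14.5 and 19.5 CPM at PDMS day 4, at 34.3, 102, 9.13 and 57.8 CPM at PDMS day 7, and at 22.9, 148, 60.8 and 70.0 CPM at PDMS day 14. On plastic it stood at 17.9, 21.7, 45 and 41.3 CPM at day 4, at 22.7, 27.6 and 17.9 CPM at day 7, and at 15.9, 153, 179 and 54.4 CPM at day 14. At day 14, 3 of 4 libraries on each surface lay above all libraries of day 4 on that surface, and replicate 1 was the low one on both, for Fos as well as for Egr1. Egr1 averaged 75.5 ± 52.6 CPM at PDMS day 14 and 22 ± 8.22 CPM at PDMS day 4 (SD, n = 4 each), a log2 fold change of 1.78 ± 0.67 SE (adjusted p = 0.0487, edgeR). This call lay at the threshold. It held without PDMS day 14 replicate 1 and ended without any other library of these groups, with a log2 fold change of 1.22 (edgeR adjusted p = 0.175) without PDMS day 14 replicate 2, and it was 1.56 (adjusted p = 0.0554) with the replicate number as a block and 2.10 (adjusted p = 0.0585) without the 5 libraries that deviated together. Egr1 averaged 100.5 ± 77.8 CPM at Plastic day 14 and 31.5 ± 13.6 CPM at Plastic day 4 (SD, n = 4 each), with a log2 fold change of 1.68 ± 0.66 that did not pass (edgeR adjusted p = 0.0560). DESeq2 called it (1.69, adjusted p = 0.0252), among 5258 genes in all. With edgeR the log2 fold change was 1.16 with the alike libraries summed (adjusted p = 0.286) and 1.24 without the 5 libraries that deviated together (adjusted p = 0.377). It passed without Plastic day 14 replicate 1 (2.03, edgeR adjusted p = 0.0211), without Plastic day 4 replicate 3 (1.95, adjusted p = 0.0462) and without Plastic day 14 replicate 4 (1.88, adjusted p = 0.0496). The order by mean log2 CPM was Plastic day 14, then PDMS day 14, then PDMS day 2, then PDMS day 7, then Plastic day 4, then Plastic day 7, then PDMS day 4, and no neighbours differed by more than their pooled SD.

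Myc, the growth regulator, had the narrowest range of the 5, from 65.1 to 175 CPM over all libraries. It stood at 128, 175, 143 and 148 CPM at PDMS day 2, at 96.6, 109, 82.2 and 77.6 CPM at PDMS day 4, at 81.4, 102, 70.3 and 112 CPM at PDMS day 7, and at 75.3, 105, 80.8 and 113 CPM at PDMS day 14. On plastic it stood at 123, 120, 101 and 92.1 CPM at day 4, at 94.9, 93.4 and 81.6 CPM at day 7, and at 71.9, 89.6, 84.6 and 65.1 CPM at day 14. Each PDMS day 2 library lay above each library of the other groups, and the share of all genes that did so was not counted. Against PDMS day 14 alone, 20.2% of genes tested were lower than at PDMS day 2 without overlap. Myc fell to 93.4 ± 18.3 CPM at PDMS day 14, against 148 ± 19.6 CPM at PDMS day 2 (SD, n = 4 each), a log2 fold change of -0.67 ± 0.16 SE (adjusted p = 0.00173, edgeR). The same size was reached by day 4, where the log2 fold change against PDMS day 2 was -0.70 ± 0.16 (edgeR adjusted p = 0.0155), and at PDMS day 14 against PDMS day 4 it was 0.03 ± 0.16 (edgeR adjusted p = 0.889). On plastic Myc fell to 77.8 ± 11.3 CPM at day 14, against 109 ± 14.9 CPM at day 4 (SD, n = 4 each), a log2 fold change of -0.49 ± 0.16 (edgeR adjusted p = 0.0248). That call ended without Plastic day 4 replicate 1 or 2 or Plastic day 14 replicate 1 or 4 (log2 fold change -0.39 to -0.45, edgeR adjusted p = 0.0618 to 0.12), and it was -0.30 without the 5 libraries that deviated together (adjusted p = 0.321). By mean log2 CPM the order was PDMS day 2, then Plastic day 4, then PDMS day 14, then PDMS day 4, then PDMS day 7, then Plastic day 7, then Plastic day 14. PDMS day 2 and Plastic day 4 differed by more than their pooled SD (0.45 against 0.19 on the log2 scale), as did Plastic day 7 and Plastic day 14 (0.22 against 0.18).

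Counted over the 5 genes, 3 fell and 0 rose at PDMS day 14 against PDMS day 2 (Jun, Atf3 and Myc), where 27.3% of genes tested were called lower and 51.6% were called in either direction. For the same 3 genes all PDMS day 14 libraries lay below all PDMS day 2 libraries, as for 20.2% of genes tested. At PDMS day 4 against PDMS day 2 the same 3 fell, where 4.85% of genes were called lower and 10.0% in either direction. The median log2 fold change of the 5 was -0.85 there, beside -0.01 over all genes. Calls of this early step often ended when 1 library was left out. Of the 5 genes, 0 passed without PDMS day 2 replicate 1 or PDMS day 4 replicate 4. In turn, 1 passed without PDMS day 2 replicate 2 or 3 or PDMS day 4 replicate 1 or 3. All signs were kept, and the log2 fold changes ran from -1.07 to -0.75 for Jun, -1.79 to -1.28 for Atf3 and -0.80 to -0.63 for Myc. In a fit of these 2 groups alone 0 passed. At PDMS day 14 against PDMS day 4, Egr1 rose and Atf3 fell (log2 fold change -1.53 ± 0.46, edgeR adjusted p = 0.0196), where 28.6% of genes were called. The Atf3 call ended without PDMS day 4 replicate 1 or PDMS day 14 replicate 1 or 4 (edgeR adjusted p = 0.0536 to 0.0585) and with limma-voom (adjusted p = 0.0825). At Plastic day 14 against Plastic day 4, Jun, Atf3 and Myc fell and 0 rose with edgeR (DESeq2 also called Egr1 higher), where 18.3% of genes were called lower and 32.6% in either direction. Of the genes called, 43.9% were higher on plastic at day 14 with TMM and 27.1% with library size, and 47% and 35.9% at PDMS day 14 against PDMS day 2. Jun, Atf3 and Myc did not overlap between the plastic groups, as for 14.3% of genes that lay lower without overlap. In the shorter steps, days 7 against 4 and 14 against 7, 0 of the 5 passed with edgeR on either surface, where 0.147% and 5.53% of genes were called on PDMS and 0% and 0.0842% on plastic. With DESeq2, 1 of these passed, Atf3 at PDMS day 7 against PDMS day 4. At the step to day 7 on PDMS, 1 of 5 had an unadjusted p under 0.05 with edgeR, beside 1708 of the 14258 genes. On plastic it was 2 of 5, beside 2665 genes. At the step to day 14 it was 0 of 5 on PDMS, beside 3819 genes, and 2 of 5 on plastic, beside 2042 genes.

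**Figure D2:**
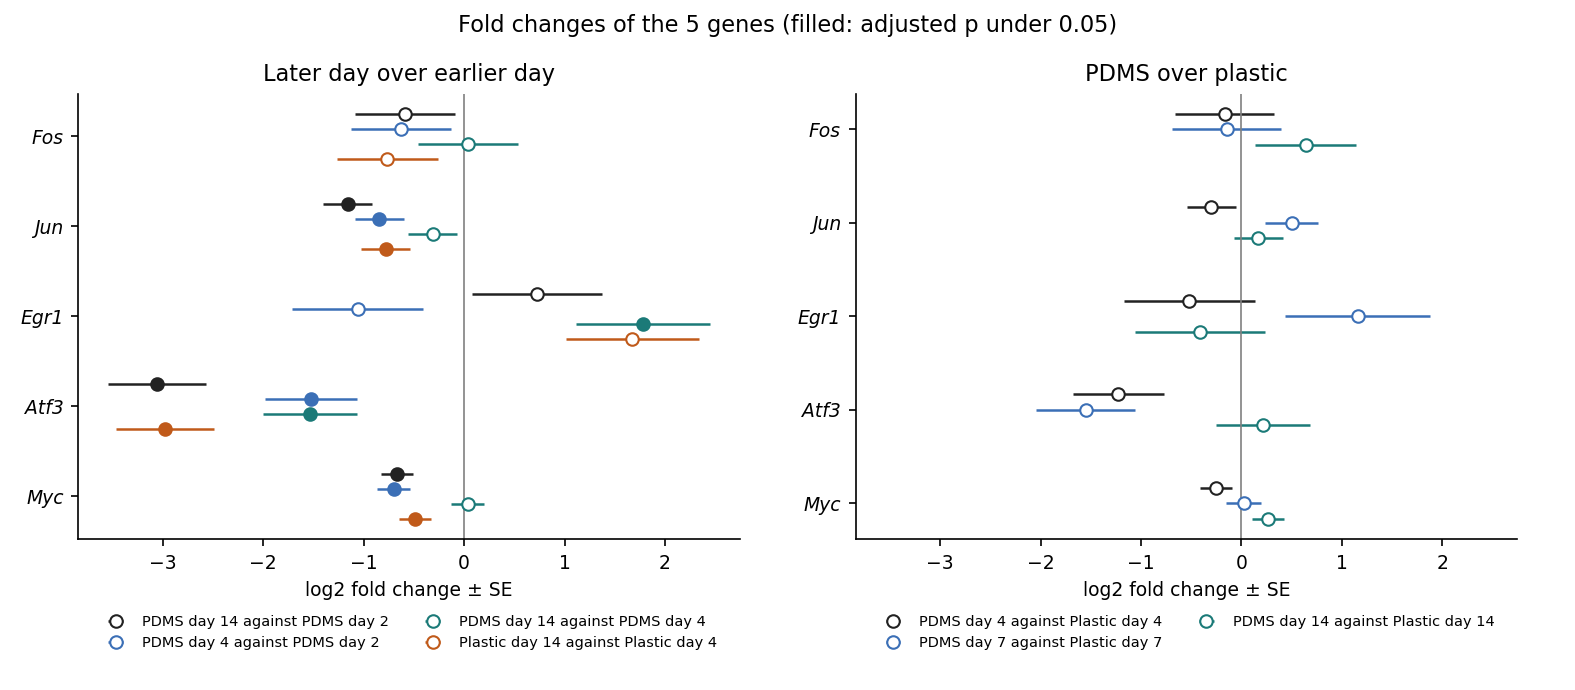
Log2 fold changes with their SE from the edgeR fit, later over earlier day on the left and PDMS over plastic on the right, with filled points for an adjusted p under 0.05. Atf3 reaches -3.06 on PDMS from day 2 to day 14 and -2.98 on plastic from day 4 to day 14. On PDMS from day 4 to day 14 it is -1.53. Egr1 lies above 0 at day 14 against day 4, and no point on the right is filled.

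PDMS was set against plastic on the same day to ask whether a soft surface changes these genes. At day 4 all 5 genes had negative log2 fold changes, and 0 passed with edgeR, DESeq2 or limma-voom. Atf3 had the largest, -1.22 ± 0.45 (SE, edgeR adjusted p = 0.4), with 7.80 ± 3.08 CPM on PDMS and 18.2 ± 11.2 CPM on plastic (SD, n = 4 each). It was the 1 gene of 5 with an unadjusted p under 0.05 with edgeR, as 1246 of the 14258 genes tested had. Its value rested on the alike pair of plastic libraries: it was -0.96 with the pair counted as 1 and -0.17 without the 5 libraries that deviated together. At day 7 Atf3 stood at 2.38 ± 0.595 CPM on PDMS and 6.99 ± 2.60 CPM on plastic (SD, n = 4 and 3). All 4 PDMS libraries lay below all 3 plastic ones, as 10.0% of genes did, and the log2 fold change was -1.55 ± 0.49 (edgeR adjusted p = 0.103). DESeq2 called it (adjusted p = 0.0380), and edgeR and limma-voom did not. Over all genes DESeq2 called 781 here and limma-voom 42, and edgeR called 121, or 0.849% of those tested. Jun pointed the other way at day 7, with 156 ± 34.9 CPM on PDMS and 111 ± 38.8 CPM on plastic (SD, n = 4 and 3), a log2 fold change of 0.50 ± 0.26 (edgeR adjusted p = 0.331). It passed, at 0.82 (adjusted p = 0.0466), only when the 5 libraries that deviated together were left out, 1 of which is the highest plastic library. Egr1 had a log2 fold change of 1.15 ± 0.72 at day 7 (edgeR adjusted p = 0.418).

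At day 14 the log2 fold changes were 0.64 ± 0.50 for Fos, 0.17 ± 0.24 for Jun, 0.22 ± 0.47 for Atf3, -0.41 ± 0.65 for Egr1 and 0.26 ± 0.16 for Myc (SE), with edgeR adjusted p of at least 0.672. 0 of 5 passed with edgeR, DESeq2 or limma-voom, and edgeR called 0% of all genes at days 4 and 14. At day 14, 0 of 5 had an unadjusted p under 0.05 with edgeR, beside 1266 of the 14258 genes tested. Averaged over the 3 shared days, a contrast chosen after the data were seen, the surfaces gave Atf3 a log2 fold change of -0.85 ± 0.27 (edgeR adjusted p = 0.0586), where 7.04% of genes passed. That value was -0.89 with the replicate number as a block (adjusted p = 0.0491) and -0.44 without the 5 libraries that deviated together (adjusted p = 0.381). It also passed without Plastic day 4 replicate 3, Plastic day 7 replicate 3 or PDMS day 14 replicate 3 (edgeR adjusted p = 0.0185 to 0.0472). The other 4 genes lay between 0.01 and 0.12 (adjusted p at least 0.666).

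Whether the course over days differed between the surfaces was tested as an interaction. For day 14 against day 4 the difference of the log2 fold changes, PDMS minus plastic, was 1.44 ± 0.65 for Atf3 (SE, edgeR adjusted p = 0.715) and 0.52 ± 0.23 for Myc (adjusted p = 0.697). These 2 of 5 genes had an unadjusted p under 0.05 with edgeR, as 971 of the 14258 genes tested did. Without the 5 libraries that deviated together the values were 0.39 for Atf3 and 0.46 for Myc. With all libraries in, the difference was 0.81 ± 0.70 for Fos, 0.47 ± 0.34 for Jun and 0.11 ± 0.91 for Egr1. None of the 5 passed with edgeR, DESeq2 or limma-voom, and edgeR called 0% of all genes. For the steps to day 7 and to day 14, interactions chosen after the data were seen, 0 of 5 passed as well, and edgeR called 0% of all genes. Their largest values were 1.67 ± 0.97 for Egr1 at the step to day 7 (edgeR adjusted p = 0.994) and 1.77 ± 0.68 for Atf3 at the step to day 14 (edgeR adjusted p = 0.712).

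The genes differed in how much of their variation followed the groups. Groups of substrate and day took 80.5% of the variance of log2 CPM for Atf3, more than for 95.6% of genes tested. They took 66.6% for Jun and 67.0% for Myc, and only 32% for Fos and 32.1% for Egr1, beside a median of 51.1% over all genes. The test for any difference among the 7 groups passed for Atf3 (edgeR adjusted p = 8.87e-06), Jun (adjusted p = 0.000795), Myc (adjusted p = 0.000985) and Egr1 (adjusted p = 0.0397). It passed for 57.2% of all genes tested. The Egr1 call ended in 13 of 27 fits that left out 1 library (highest adjusted p = 0.107, without Plastic day 14 replicate 3) and in 5 of 8 other settings: with library size (adjusted p = 0.0535), the replicate block (0.0848), limma-voom (0.240), the alike libraries summed (0.131) and without the 5 libraries that deviated together (0.126). The SD within groups was 1.05 on the log2 scale for Egr1, above that of 90.7% of genes, 0.74 for Fos, 0.69 for Atf3, 0.35 for Jun and 0.23 for Myc, beside a median of 0.35. Counting error was small beside these: the lowest counts were 85 reads for Fos, 229 for Egr1 and 34 for Atf3, which allow a Poisson coefficient of variation of 10.8%, 6.61% and 17.1%.

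**Figure D3:**
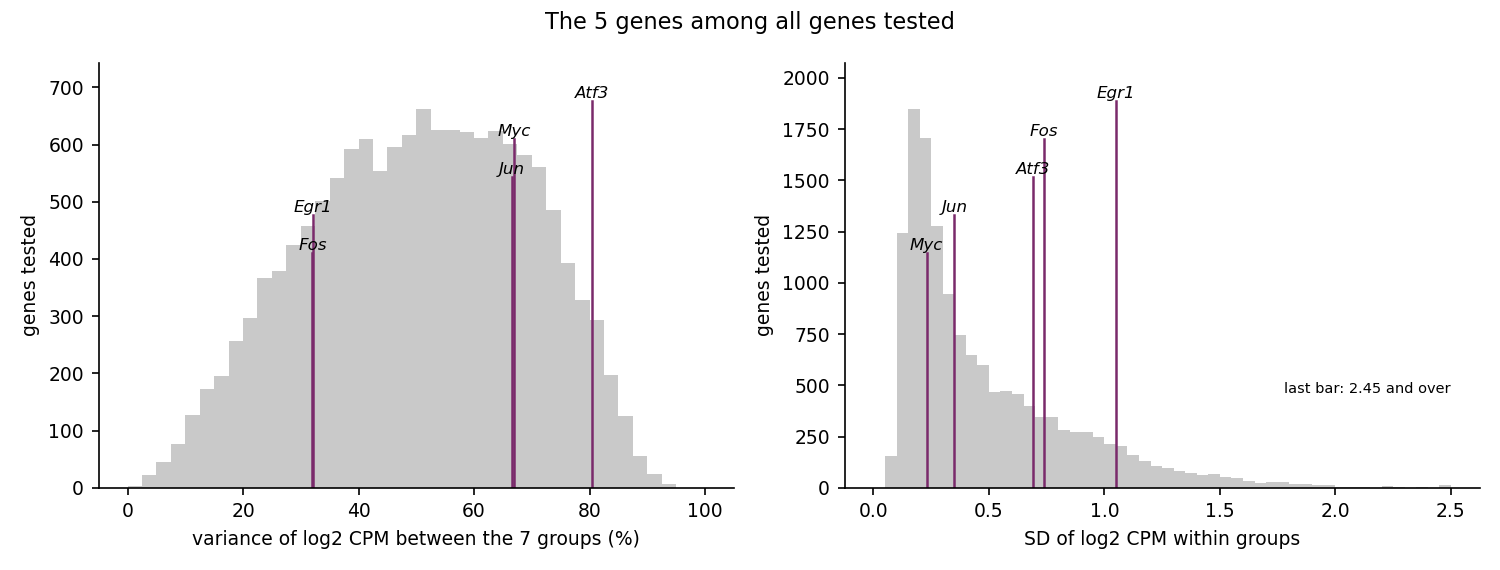
Grey bars count the 14258 genes tested by the share of variance of log2 CPM that lies between the 7 groups (left) and by the SD within groups (right), with the 5 genes as lines whose height carries no value. Fos and Egr1 have low shares near 32% and wide spreads of 0.74 and 1.05, while Atf3 has a share of 80.5%.

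Within groups, Fos and Egr1 tended to lie high or low in the same libraries. Over the 27 libraries, their deviations from the group means had a Pearson r of 0.58 (two-sided permutation p = 0.00322, adjusted 0.0322 over 10 pairs of genes) and a Spearman rho of 0.55 (permutation p = 0.010, adjusted 0.1), and 19 of 27 lay on the same side. Without the 2 libraries farthest in Fos r was 0.52, on PDMS alone it was 0.46 over 16 libraries and on plastic 0.74 over 11, and without the 5 libraries that deviated together it was 0.62. Jun and Atf3 had an r of 0.59 (permutation p = 0.0205, adjusted 0.0683) and a rho of 0.52 (permutation p = 0.0426, adjusted 0.142), and did not pass the adjustment. Their r was 0.62 without the 2 libraries farthest in Jun, 0.36 on PDMS and 0.85 on plastic. All 5 libraries that deviated together over all genes were above their group means in both Jun and Atf3 and below them in Fos. Without them the r of Jun and Atf3 was 0.32, and that of Fos and Jun was 0.31 in place of -0.39. Egr1 and Myc had an r of 0.54 (permutation p = 0.0205, adjusted 0.0683) and a rho of 0.53 (permutation p = 0.0227, adjusted 0.114), with 20 of 27 libraries on the same side. Their r was 0.48 without the 2 libraries farthest in Egr1, 0.70 on PDMS, 0.26 on plastic and 0.73 without the 5. The other 7 pairs had an adjusted permutation p of at least 0.126. Whether the library itself lay behind part of what pairs of genes share was not tested, and neither was what moved the 5 libraries.

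**Figure D4:**
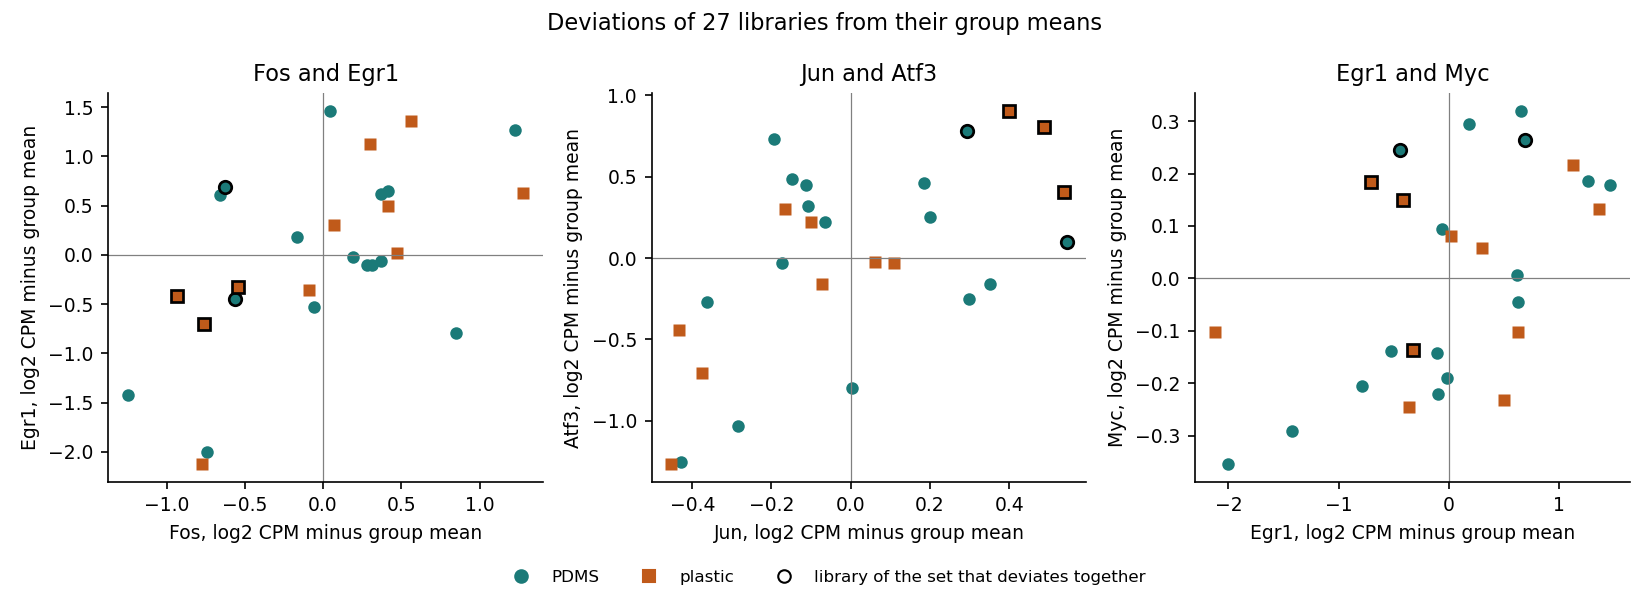
Each point is 1 of 27 libraries, placed by its log2 CPM minus its group mean for 2 genes, with PDMS as circles, plastic as squares and a black edge for the 5 libraries that deviated together over all genes. Fos and Egr1 (r of 0.58) and Egr1 and Myc (0.54) run upward, and in the panel of Jun and Atf3 (0.59) the 5 edged libraries lie above 0 on both axes.

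Over all 27 libraries, with differences between groups left in, Jun and Myc were the most alike pair of the 5 (Pearson r of 0.75 in log2 CPM), and Jun ranked 200 among the 14257 other genes in likeness to Myc. Jun and Atf3 had an r of 0.70 and Atf3 and Myc one of 0.68. Fos had an r of 0.41 to Myc, 0.36 to Atf3, 0.36 to Egr1 and 0.16 to Jun. Egr1 had an r of 0.19 to Myc, -0.10 to Jun and -0.29 to Atf3, and Egr1 ranked 2150 of 14257 in likeness to Fos. The genes most like Fos were ENSRNOG00000016378 (r of 0.82) and ENSRNOG00000019141 (0.82), and those most opposed were ENSRNOG00000025527 (-0.80) and ENSRNOG00000018690 (-0.78). These are descriptions over 27 libraries that share group, depth and scaling, and the files pair these IDs with no name.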

How the data were processed

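RNA was sequenced from 27 samples of cultured fibroblasts, with libraries made by a TruSeq kit from 200 ng of total RNA per the labels' protocols. The table the authors deposited holds whole-number read counts, 1 row per Ensembl rat ID and 1 column per library. The submitters' processing notes name FastQC 0.11.2, Cufflinks 2.2.1, STAR and DESeq2. For the raw counts, the program, strand mode, build and gene models are details not given in the sources used here. Overlapping or antisense genes may therefore share reads with the 5. The table has 28 columns of values, of which 1 matches no sample of the labels and was left aside. Of 32753 IDs, 0 matched a symbol in the reference table, so the lists of related genes and of cell type markers were not analysed here.

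In R 4.3.3 with edgeR 4.0.16, filterByExpr (a count of about 10 in enough libraries, a total of 15) kept 14258 genes with at least 99.94% of reads. All 27 libraries entered 1 quasi-likelihood model with 7 group means and TMM scaling, two-sided, adjusted by Benjamini-Hochberg. The model was also run on simulated counts with independent libraries, which cannot speak to libraries that deviate together or are closely alike. Each SE was taken as the absolute log2 fold change divided by root F. Log2 CPM carries a prior count of 2. Alternatives used DESeq2 1.42.0, limma 3.58.1, other scaling, no filter, fewer groups or libraries, and a replicate block. Co-variation used 100000 permutations within groups.

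Replicate numbers carry no stated meaning. Deviations of same-numbered libraries correlated over 0.1 in 4 of 4 pairs for PDMS day 4 against PDMS day 2 (0.14 to 0.567), but only 1 of 4 correlated best with its own number. Whether the numbers pair the samples is not settled, and the main tests did not pair by them. With the replicate number as a block, 3 genes passed in that contrast with edgeR: Jun (log2 fold change -0.86, adjusted p = 0.01675), Atf3 (-1.48, adjusted p = 0.0374) and Myc (-0.70, adjusted p = 0.0109). The other contrasts had at least 1 pair below 0.1.

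The genes, lists and tests were chosen with earlier results of these data known. The rule for named genes took the 5 genes and, for likeness, 2 IDs most like and 2 most opposed to Fos.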

Additional observations from a re-analysis of the deposited data

How the results depend on the processing

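Jun, Atf3 and Myc at PDMS day 14 against PDMS day 2, and Atf3 at Plastic day 14 against Plastic day 4, kept their direction and passed in each setting tried and without any 1 library (adjusted p up to 0.0196). Of the 5 genes, the number that passed moved elsewhere. It was 1 at PDMS day 7 against Plastic day 7 with DESeq2 (Atf3) or without the 5 libraries that deviated together (Jun), in place of 0. It was 0 at PDMS day 4 against PDMS day 2 with only those groups in the fit and 2 with limma-voom or without the 5, in place of 3, and 1 at PDMS day 7 against PDMS day 4 with DESeq2 or with only those groups, in place of 0. At PDMS day 14 against PDMS day 4 it was 1 with library size in place of TMM, with no filter, with the replicate block, with the alike libraries summed or without the 5, and 0 with limma-voom, in place of 2. At Plastic day 14 against Plastic day 4 it was 1 with only those groups, with the alike libraries summed or without the 5, and 4 with DESeq2, which added Egr1, in place of 3. For the substrate contrast averaged over days it was 1 with the replicate block, DESeq2 (which called 1539 genes there) or fewer groups, in place of 0. With 1 library left out, these counts ran from 0 to 3 at PDMS day 4 against PDMS day 2, from 0 to 1 at PDMS day 14 against PDMS day 4, from 1 to 4 at Plastic day 14 against Plastic day 4 and from 0 to 1 for the averaged contrast. The causes were not tested.

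The fold changes whose sign turned had not passed (main adjusted p of at least 0.834) and lay between -0.41 and 0.22. Myc at PDMS day 7 against Plastic day 7 was -0.0029 with RLE scaling, -0.0033 with DESeq2, -0.052 with the replicate block and -0.044 without the 5, and ran from -0.091 to 0.13 over left-out libraries. Myc at PDMS day 7 against PDMS day 4 was -0.043 with library size, -0.0073 with RLE, -0.0078 with DESeq2, -0.0074 with limma-voom and -0.0096 with only those groups (-0.11 to 0.16 over left-out libraries). With library size Myc was -0.043 at PDMS day 14 against PDMS day 7 (-0.075 to 0.15) and -0.086 at PDMS day 14 against PDMS day 4 (-0.070 to 0.17). Myc in the averaged contrast was -0.00035 with RLE, -0.00042 with DESeq2, -0.00011 with limma-voom and -0.018 with the replicate block (-0.028 to 0.046). Fos was 0.081 with limma-voom at PDMS day 4 against Plastic day 4 (-0.42 to 0.43). At PDMS day 14 against PDMS day 4 Fos was -0.066 with library size, -0.18 with limma-voom and -0.10 without the 5 (-0.52 to 0.33). At Plastic day 14 against Plastic day 7 Fos was -0.075 with the alike libraries summed and -0.17 without the 5 (-0.17 to 0.32), and Jun was 0.24 without the 5 (-0.25 to 0.25). The Fos interaction at the step to day 7 was -0.26 with limma-voom (-0.54 to 0.29). In the averaged contrast Fos was -0.13 without the 5 (-0.078 to 0.32), and Egr1 was -0.029 with the replicate block and -0.23 without the 5 (-0.11 to 0.22). Left-out libraries alone turned Fos at PDMS day 7 against Plastic day 7 (-0.37 to 0.12), Egr1 and Atf3 at PDMS day 14 against Plastic day 14 (-0.97 to 0.023 and -0.073 to 0.43), Jun at PDMS day 7 against PDMS day 4 (-0.0041 to 0.37), Atf3 at PDMS day 14 against PDMS day 7 (-0.11 to 0.39) and the Egr1 interaction of day 14 with day 4 (-0.45 to 0.54).

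Among the correlations of deviations, Fos and Atf3 had 0.0073 with the alike libraries summed and 0.51 without the 5 (-0.25 to 0.16 over left-out libraries), Jun and Egr1 0.015 and 0.20 (-0.20 to 0.039), Fos and Jun 0.31 without the 5, and Egr1 and Atf3 0.12 without the 5. Fos and Myc ran from -0.10 to 0.16 over left-out libraries.

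Library size in place of TMM moved the median log2 fold change of all genes by -0.158 at PDMS day 14 against PDMS day 2, by -0.114 at PDMS day 14 against PDMS day 4 and by -0.163 at Plastic day 14 against Plastic day 4, and no member called in these changed sign. Which libraries were summed, and the 5 left out together, were chosen after seeing the data.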
